A study of Bos taurus with 8 samples.

Results

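The genes described here encode enzymes that activate acetate, propionate and butyrate in the rumen wall, oxidize activated butyrate or carry propionate towards glucose. The list holds 10 genes, ACSS1, ACSS2, ACSM1, PCCA, PCCB, MMUT, MCEE, ACADS, PCK1 and PCK2. It was set by enzyme function and not by signal, although earlier results of these data were known. A probe was assigned to a gene when its RefSeq accession belonged to that gene in the bovine reference, and this gave 1 probe each for 7 of the 10 genes, out of 7788 genes named on the array. No probe was matched by accession to PCCA, ACADS or PCK2, and these genes were not analysed here. Of the 7 genes, 6 were well above background on all 8 arrays by the scanner software's own test, and PCK1 on 2 arrays.

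The samples were rumen papillae, the projections that line the rumen, from 4 lactating female Holstein cows with rumen cannulas, which averaged 460 kg (± 16.4) and had calved 84 d (± 25) earlier. Each cow received a low-concentrate diet (LC, 40% concentrate of dry matter) and a high-concentrate diet (HC, 70%) in a crossover of 2 periods, each lasting 21 d, and papillae were taken on the last day, 4 h after feeding. Cows 1 and 2 began on LC and changed to HC, while cows 3 and 4 took the diets in the opposite order. All cows had eaten a ration with less concentrate before the trial, so none was naive to it, and 1 array was made from each cow on each diet without pooling.

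In the rumen, microbes ferment feed to short-chain fatty acids, mainly acetate, propionate and butyrate, and the epithelium of the papillae absorbs and partly oxidizes them. An acyl-CoA synthetase must first join each acid to coenzyme A. Propionyl-CoA is then carboxylated, epimerized and rearranged to succinyl-CoA, which enters the tricarboxylic acid cycle, and phosphoenolpyruvate carboxykinase can draw its carbon off towards glucose. In ruminants the liver is the main site of that last step. The papilla is a mixed tissue of stratified epithelium over a core of connective tissue and vessels, so a change in the number of cells of a type cannot be told apart from a change in RNA per cell.

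Each array gave 21475 probes after quantile normalization, and 76.9 to 81.2% of them were well above background. Keratin and desmosome genes marked the samples as squamous epithelium: 7 of 10 epithelial markers had a probe, of which 6 exceeded background clearly on every array, while TP63, a regulator of basal cells, was so on none. The summed log2 signal of the epithelial markers was 19.3 to 19.7 in both groups. The markers of smooth muscle (6 of 6), fibroblasts (5 of 5) and leukocytes (4 of 4) that had a probe were measured on every array too. The 4 leukocyte markers were 0.10 to 0.31 higher (log2) in the HC group, with summed log2 signals of 10.9 to 11.2 on LC and 11.1 to 11.5 on HC, and none of them had an unadjusted P under 0.05. The part of these cells in the differences below was not tested.

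The first question was whether the diet changed the transcripts of these enzymes. A limma model with terms for diet, period and interaction was applied to every probe. A probe was counted as called when its signal differed 1.5-fold or more with an unadjusted P under 0.05. None of the 7 genes was called (0 of 7, against 0.922% of all probes), none had an unadjusted P under 0.05 from limma (0 of 7, against 3.66%), and adjusted over all probes each P was 0.999. Without moderation of the variances, a general linear model gave 1 gene of 7 with an unadjusted P under 0.05, ACSS1. The share of all probes under 0.05 in that fit was not counted, so the 1 of 7 has nothing to be set against. For each of the 6 genes measured on all arrays, the 95% interval of the difference between the diets lay inside 1.5-fold in either direction, as it did for 79.0% of the 16030 probes measured as clearly as these. With cow as a block the 6 intervals were also inside 1.5-fold, and 0 of 7 genes were called, against 1.29% of all probes.

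**Figure D1:**
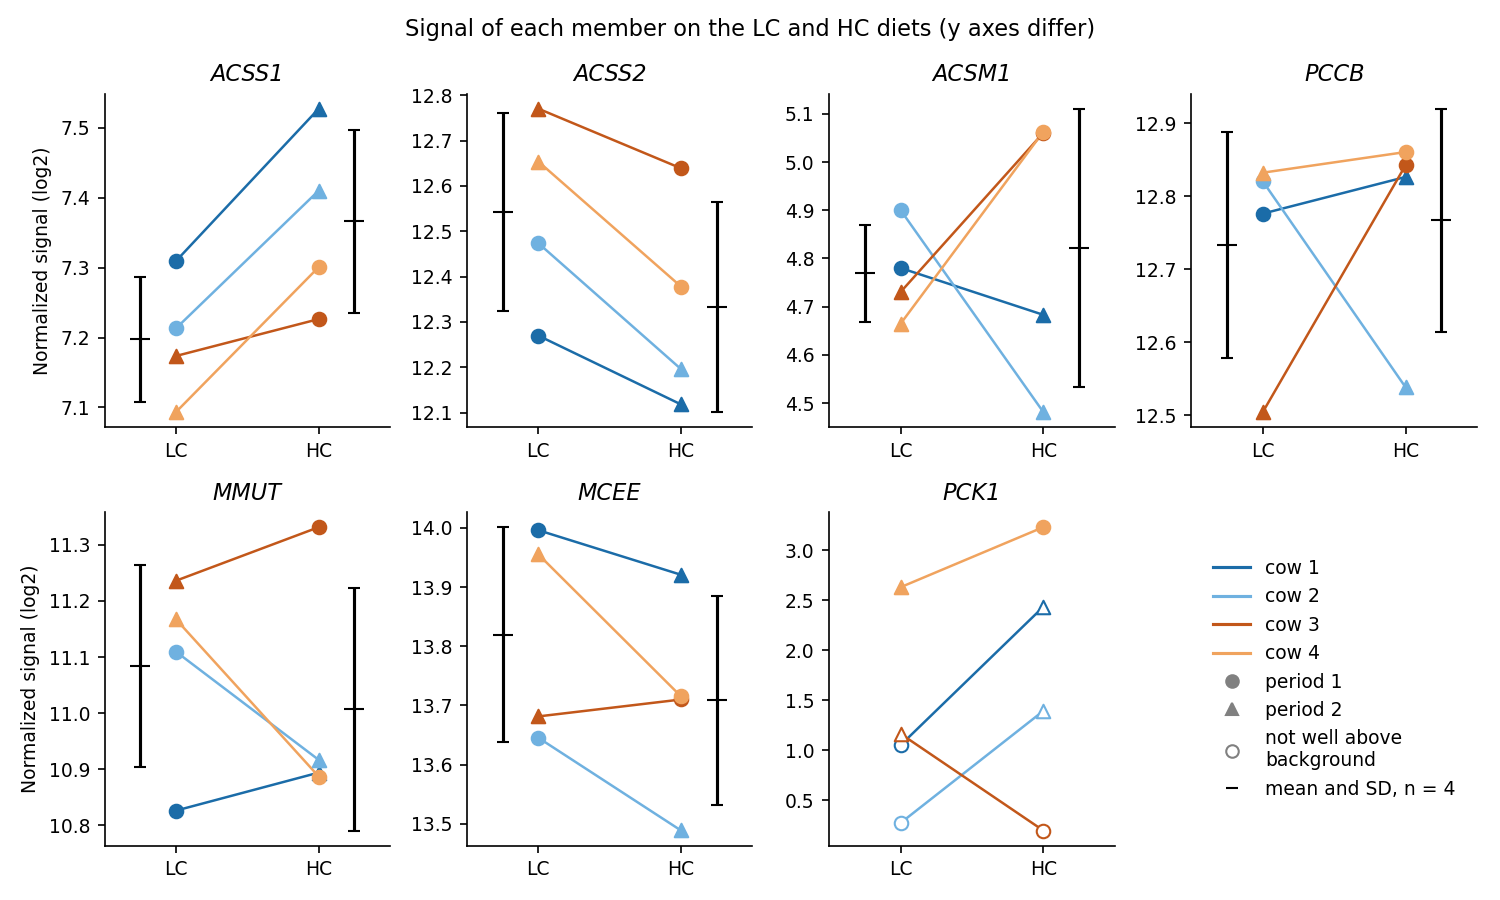
Normalized log2 signal of the 7 genes with a probe on the LC and HC diets. Lines join the arrays of 1 cow, circles are period 1 and triangles period 2. Open symbols are arrays on which the probe was not well above background. Bars are the mean and SD (n = 4) and are not drawn for PCK1. ACSS1 lines slope up and ACSS2 lines slope down in all 4 cows, ACSM1 lines cross by pair of cows, and only cow 4 has filled symbols for PCK1.

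The genes of acetate activation had the smallest P values for diet among the 6 measured genes, and their differences, neither of which passed the test, had opposite signs. ACSS1 (NM_174746) encodes the mitochondrial acetyl-CoA synthetase, which feeds acetate into oxidation. Its log2 signal on LC was 7.31, 7.21, 7.17 and 7.09 in cows 1 to 4, and on HC 7.53, 7.41, 7.23 and 7.30. Every cow had the higher value on HC, by 0.22, 0.20, 0.05 and 0.21, although the groups overlapped. The mean was 7.20 ± 0.09 (SD, n = 4) on LC and 7.37 ± 0.13 (SD, n = 4) on HC. The log2 difference was 0.17 (standard error 0.09, 95% interval -0.04 to 0.38), and limma gave an unadjusted P of 0.0952. The exact two-sided permutation P was 0.0857, where 0.0286 is the smallest that 4 arrays against 4 allow. Here and below, these permutations did not pair the arrays by cow. The difference was 0.00 within period 1 and 0.34 within period 2. Within a period the cows on HC were not those on LC, so such values, here and below, also hold differences between cows.

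ACSS2 (NM_001105339) encodes the cytosolic and nuclear acetyl-CoA synthetase, whose product serves lipid synthesis and histone acetylation. Its log2 signal on LC was 12.27, 12.47, 12.77 and 12.65 in cows 1 to 4, and on HC 12.12, 12.20, 12.64 and 12.38. Every cow had the lower value on HC, by 0.15, 0.28, 0.13 and 0.28, but the cows differed more from each other than the diets did, so the groups overlapped. The log2 signal of ACSS2 was 12.54 ± 0.22 (SD, n = 4) on LC and 12.33 ± 0.23 (SD, n = 4) on HC. The log2 difference was -0.21 (standard error 0.11, 95% interval -0.47 to 0.05), and limma gave an unadjusted P of 0.0929 (exact permutation P = 0.229). The difference was 0.14 within period 1, where ACSS1 and ACSS2 did not have opposite signs, and -0.56 within period 2.

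Of the 6 measured genes, these were the ones whose difference had the same sign in all 4 cows (2 of 6, against 11.4% of those 16030 probes). With cow as a block the unadjusted P from limma was 0.112 for ACSS1 and 0.0683 for ACSS2, and for the latter 0.0198 after normexp background correction in the model without the block. After normexp, ACSS2 was not called, and 8 of all probes were. The share of all probes with an unadjusted P under 0.05 after normexp was not counted. With cow as a block and no moderation, a setting added after the values were seen, the unadjusted P was 0.0495 for ACSS1 and 0.0486 for ACSS2, against 5.6% of all probes with an unadjusted P under 0.05 in that fit. The change of ACSS1 minus that of ACSS2 was 0.38 on the log2 scale (0.18 to 0.48 in the 4 cows), with an exact permutation P of 0.143 over the arrays. This contrast was chosen after the values were seen. Its positive sign in each cow follows from the signs of the 2 genes given above, so it is no further support. The difference between the duplicate spots of a probe within an array was at most 0.24 for ACSS1 and 0.18 for ACSS2 (median 0.05 and 0.11, log2).

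**Figure D2:**
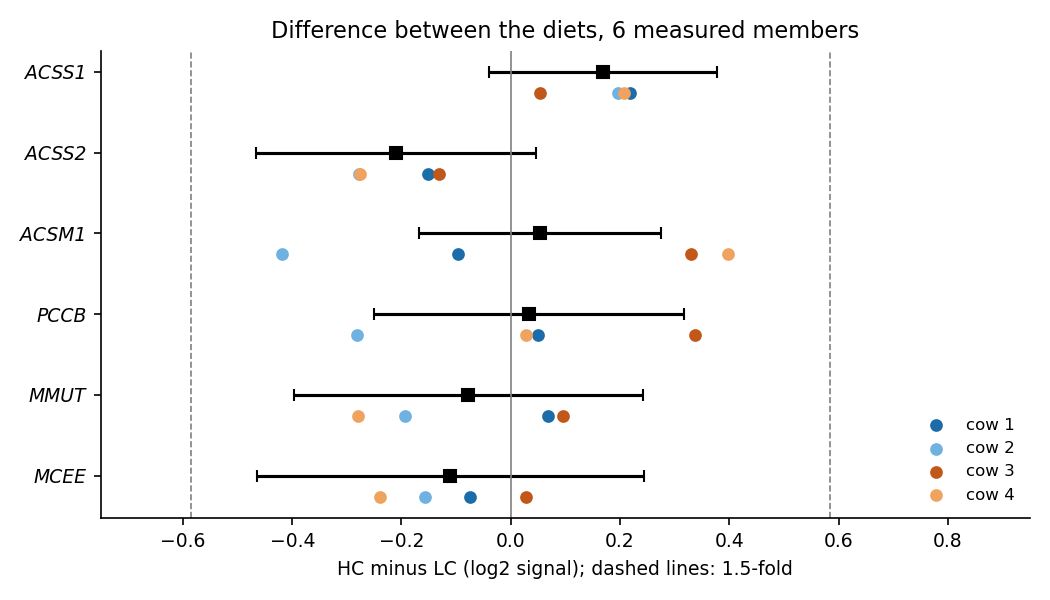
HC minus LC on the log2 scale for the 6 genes well above background on all arrays. Squares and bars are the limma difference and its 95% interval, coloured points are the differences within each cow, and dashed lines mark 1.5-fold. All 6 intervals span 0 and lie inside the dashed lines, and only ACSS1 and ACSS2 have the 4 cows on 1 side of 0.

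Over the 8 arrays, ACSS1 and ACSS2 were also mirror images of each other, with a Pearson r of -0.90 and a Spearman rho of -0.95. The lowest ACSS2 and the highest ACSS1 were on the HC array of cow 1, and the highest ACSS2, on the LC array of cow 3, came with the next-to-lowest ACSS1. Of the 6467 other genes measured on all arrays, 0.294% had an r with ACSS2 at or below that of ACSS1. ACSS2 and MMUT went together (r = 0.88, rho = 0.74), and 0.773% of the other genes had an r with ACSS2 at or above that of MMUT. The arrays are pairs from 4 cows, so these values are descriptions and carry no P. Both pairs were picked after the values were seen, as the lowest and the highest r among the 6 genes, so the shares are no test either. The other 13 pairs among the 6 genes had r from -0.69 to 0.61.

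**Figure D3:**
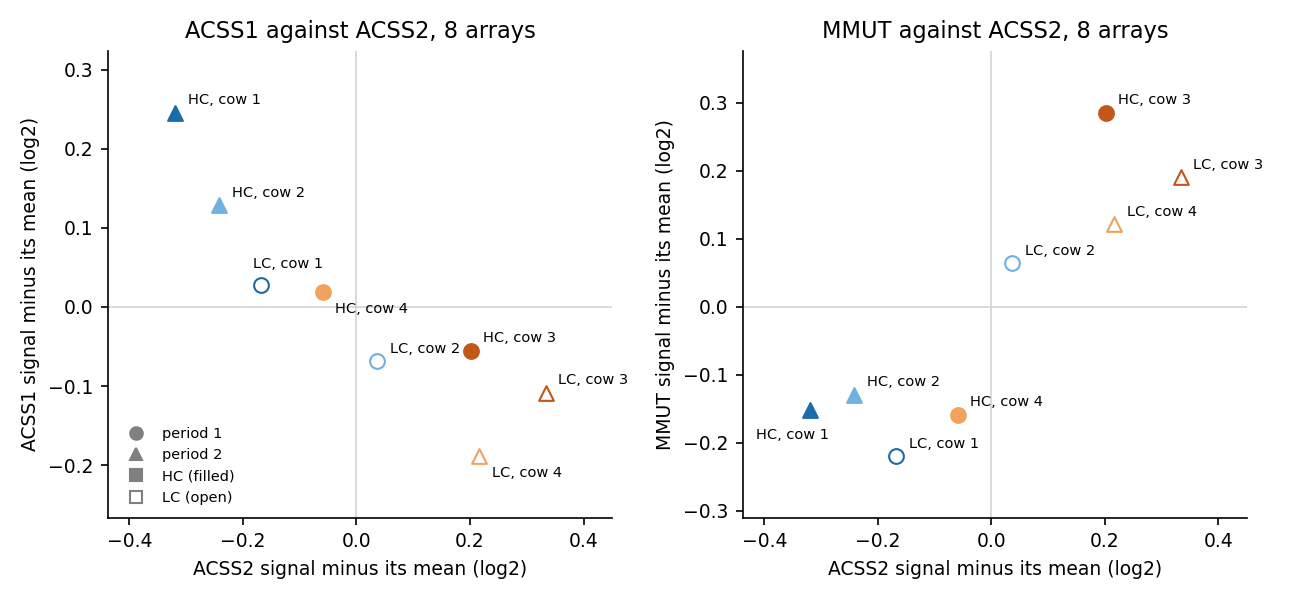
Log2 signal of ACSS1 (left) and MMUT (right) against ACSS2 on the 8 arrays, each minus its own mean. Filled symbols are HC, open symbols LC, circles period 1, triangles period 2, and each point is 1 array. ACSS1 declines as ACSS2 increases (r = -0.90) and MMUT increases with it (r = 0.88), with cows 3 and 4 mostly to the right and cows 1 and 2 mostly to the left.

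ACSM1 (NM_174682) encodes a mitochondrial medium-chain acyl-CoA synthetase that also takes butyrate and was formerly called BUCS1. Its log2 signal was 4.78, 4.90, 4.73 and 4.66 on LC and 4.68, 4.48, 5.06 and 5.06 on HC, in cows 1 to 4. The signal was higher on HC in cows 3 and 4, by 0.33 and 0.40, and lower in cows 1 and 2, by 0.10 and 0.42, so the mean difference was 0.05 (standard error 0.09, 95% interval -0.17 to 0.27, limma unadjusted P = 0.582). Within period 1 it was 0.22 and within period 2 -0.12. Sorted by period instead, the arrays did not overlap: they lay between 4.78 and 5.06 in period 1 and between 4.48 and 4.73 in period 2. Of all probes, 7.49% had periods that did not overlap.

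For ACSM1 the log2 difference of period 2 minus period 1 was -0.31 (standard error 0.09), a 1.24-fold lower signal, with an unadjusted P of 0.0136 and an adjusted P of 0.260 from limma. It was short of the 1.5-fold threshold, as were those of the other measured genes, and 0 of 7 genes were called for period against 3.86% of all probes. For period, 1 gene of 7 had an unadjusted P under 0.05 (12.3% of all probes). ACSM2B, a related synthetase and 1 of the pathway genes below, had a period difference of -0.39 (limma unadjusted P = 0.00828) in the brighter of its 2 probes. It was named after its value was seen. Of the other genes of its list measured on every array, SLC27A2 (0.31) and SLC25A20 (0.13) were higher in period 2, and CRAT (-0.06) was lower. The 4 arrays of each period lay on 1 slide, and the effects of slide and period cannot be told apart. Duplicate spots of ACSM1 differed by up to 0.46 within an array (pooled SD 0.19), the largest spread among the 6 measured genes. The adipocyte marker with a measured probe, PLIN1, gave no overlap between periods either, in the other direction, and the summed log2 signal of its list was 3.72 to 3.97 in period 1 and 4.24 to 4.56 in period 2. Its part in the ACSM1 values was not tested.

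The 3 propionate genes with a probe differed little between the diets. PCCB (NM_001038548) encodes the beta subunit of propionyl-CoA carboxylase, the biotin enzyme that opens the pathway. Its log2 signal was 12.78, 12.82, 12.50 and 12.83 on LC and 12.83, 12.54, 12.84 and 12.86 on HC, in cows 1 to 4. Of the 8 arrays, 6 lay between 12.78 and 12.86, and the 2 low ones were cow 3 on LC and cow 2 on HC, 1 in each group and both in period 2. The log2 difference was 0.03 (standard error 0.12, 95% interval -0.25 to 0.32), and limma gave an unadjusted P of 0.783 (exact permutation P = 0.486). It was 0.05 within period 1 and 0.01 within period 2, and it changed sign to -0.05 when the LC array of cow 3 was left out and to -0.04 when that of cow 1 on HC was.

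MCEE (NM_001045995) encodes methylmalonyl-CoA epimerase, which turns the product of the carboxylase into the form the mutase accepts. On LC its log2 signal was 14.00, 13.65, 13.68 and 13.96, and on HC 13.92, 13.49, 13.71 and 13.72, in cows 1 to 4. The values followed the cow more than the diet, with cow 1 highest and cow 2 lowest on each diet. The mean was 13.82 ± 0.18 (SD, n = 4) on LC and 13.71 ± 0.18 (SD, n = 4) on HC. The log2 difference of MCEE was -0.11 (standard error 0.15, 95% interval -0.47 to 0.24), lower on HC in 3 of 4 cows, and limma gave an unadjusted P of 0.476 (exact permutation P = 0.429). Within periods 1 and 2 it was -0.11 and -0.11.

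MMUT (NM_173939, formerly MUT) encodes the vitamin B12-dependent methylmalonyl-CoA mutase, which completes the conversion to succinyl-CoA. Its log2 signal on LC was 10.83, 11.11, 11.24 and 11.17 in cows 1 to 4, and on HC 10.89, 10.92, 11.33 and 10.89. Cow 3 was the highest on each diet, and on HC it stood apart from the other 3 cows, which lay between 10.89 and 10.92. The log2 difference of MMUT was -0.08 (standard error 0.13, 95% interval -0.40 to 0.24), lower on HC in 2 of 4 cows, and limma gave an unadjusted P of 0.577. It was 0.14 within period 1 and -0.30 within period 2, and 0.03 when cow 4 on HC was left out.

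PCK1 (NM_174737) encodes the cytosolic phosphoenolpyruvate carboxykinase, the enzyme that commits carbon to gluconeogenesis. The probe was well above background on both arrays of cow 4, with log2 signals of 2.63 on LC and 3.23 on HC, and on none of the other 6 arrays, whose values lay between 0.20 and 2.43. No fold change between the diets is therefore given, and the duplicate spots differed by up to 2.44 (log2) within an array. In the table of normalized values that the authors deposited, the same probe had 0.97 ± 0.12 (SD, n = 4) on LC and 2.34 ± 0.76 (SD, n = 4) on HC and passed the call rule, with an unadjusted P of 0.00321 and an adjusted P of 0.289 from limma. There, 2 of the 8 PCK1 values matched, within 0.005, the mean over the remaining 3 arrays on that diet, and no value of the other 6 genes did.

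The HC value of cow 3 was 2.34 in that table, the mean of the other 3 HC arrays, and 0.20 from the scanner. The other such value was 0.97, in the LC column named for cow 1. The LC value of cow 4 did not equal the mean of the others in the table, but it also differed, at 0.80 there and 2.63 from the scanner. In the scanner values PCK1 was also called without the HC array of cow 3 (unadjusted P = 0.0440), and in no other array left out. The columns of cows 1 and 2 in the deposited table followed the scanner array of the other of these cows on both diets (r of 0.99989 or more against 0.993 with the array of the same name), which affects neither the diet groups nor the pairing.

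The next question was whether the diet difference depended on the period. In this crossover that contrast is the same as cows 1 and 2 against cows 3 and 4, so period dependence and differences between these cows cannot be told apart. ACSS2 was the gene called (1 of 7, against 8.58% of all probes): HC minus LC was 0.14 within period 1 and -0.56 within period 2, a difference of -0.69 (standard error 0.21) with an unadjusted P of 0.0159 and an adjusted P of 0.415 from limma. In terms of animals, ACSS2 had a mean log2 signal of 12.26 in cows 1 and 2 and 12.61 in cows 3 and 4. Taken on the mean of each cow, which does not count the 2 arrays of a cow as independent, its unadjusted limma P was 0.0573 and it was no longer called (0 of 7 genes, against 5.95% of all probes). Without the LC array of cow 1 the interaction was -0.59 with an unadjusted P of 0.0584, and leaving out cow 3 on HC gave -0.56, short of the fold threshold. MMUT had an interaction of -0.44 (unadjusted P = 0.145), and was also called without the HC array of cow 4, at -0.66. The other measured genes had interactions of -0.34 to 0.33.

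Among 78 other genes of these pathways, 47 had a matched probe, and 45 of these were measured on every array. The 45 had a median log2 difference near that of all probes on the arrays, with 17 higher and 28 lower on HC. Of the 45, 38 had a 95% interval inside 1.5-fold, as did 79.0% of all probes measured on every array. The difference had the same sign in all 4 cows for 3 of the 45 (HIBADH, ACADM and SIRT1), against 11.4% of all probes measured on every array. Only ACSM4, a further acyl-CoA synthetase, passed the call rule for diet (1 of 47, against 0.922% of all probes), but its probe was well above background on 0 of 8 arrays, so no fold change is given. For the interaction 3 of 47 genes were called, against 8.58% of all probes: ACSM4, BTD, the enzyme that recycles biotin (0.78), and ACADSB, a short branched-chain acyl-CoA dehydrogenase (-0.99). When the 2 arrays of every cow were averaged first, limma gave an unadjusted P of 0.0704 for ACSM4, 0.0380 for BTD and 0.0548 for ACADSB, so only the call of BTD was kept, with an adjusted P of 0.817. The list genes were chosen from knowledge of the pathways, with earlier results of these data known.

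Of 12 genes of acyl-CoA synthesis and carnitine handling, 6 had a probe, and the 4 measured on every array had a median log2 difference of -0.09. Of 18 genes around propionate, valine breakdown and vitamin B12, 12 had a probe, all measured on every array, with 6 higher and 6 lower on HC and a median of -0.005. The smallest unadjusted P values there were those of BTD (log2 difference 0.13, limma P = 0.282, exact permutation P = 0.543) and HIBADH, a dehydrogenase of valine breakdown (0.10, limma P = 0.313, permutation P = 0.143, higher in 4 of 4 cows). In short-chain beta-oxidation 5 of 11 genes had a probe, with a median of -0.04, led by the medium-chain dehydrogenase ACADM (0.11, limma P = 0.213, exact permutation P = 0.0571, higher in 4 of 4 cows) and by ACAD8, which acts on a valine intermediate (-0.15, limma P = 0.416, permutation P = 0.457). None of these passed the test.

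Downstream, 9 of 12 genes of phosphoenolpyruvate supply and gluconeogenesis had a probe, with 3 higher and 6 lower on HC and a median of -0.04. FBP2, a fructose bisphosphatase, had a log2 difference of 0.25 (limma P = 0.115, exact permutation P = 0.143) and MDH1, the cytosolic malate dehydrogenase, one of -0.23 (limma P = 0.143, permutation P = 0.143). In the tricarboxylic acid cycle 11 of 14 genes had a probe, and all 11 intervals lay inside 1.5-fold, with differences from -0.04 to 0.17. The smallest P values were 0.308 for IDH3B and 0.577 for FH.

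Of 11 genes of acetyl-CoA supply and use, lipid synthesis and protein deacetylation, 4 had a probe. SIRT1, a deacetylase that can act on acetyl-CoA synthetases, had a log2 signal of 5.52 ± 0.36 (SD, n = 4) on LC and 6.04 ± 0.19 (SD, n = 4) on HC. Its log2 difference was 0.52 (standard error 0.16), a 1.44-fold higher signal in 4 of 4 cows, with an unadjusted P of 0.0152, an adjusted P of 0.999 and an exact permutation P of 0.0857, short of the fold threshold. ACLY, which makes acetyl-CoA from citrate, had a difference of -0.18 (unadjusted P = 0.0931, lower in 3 of 4 cows).

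**Figure D4:**
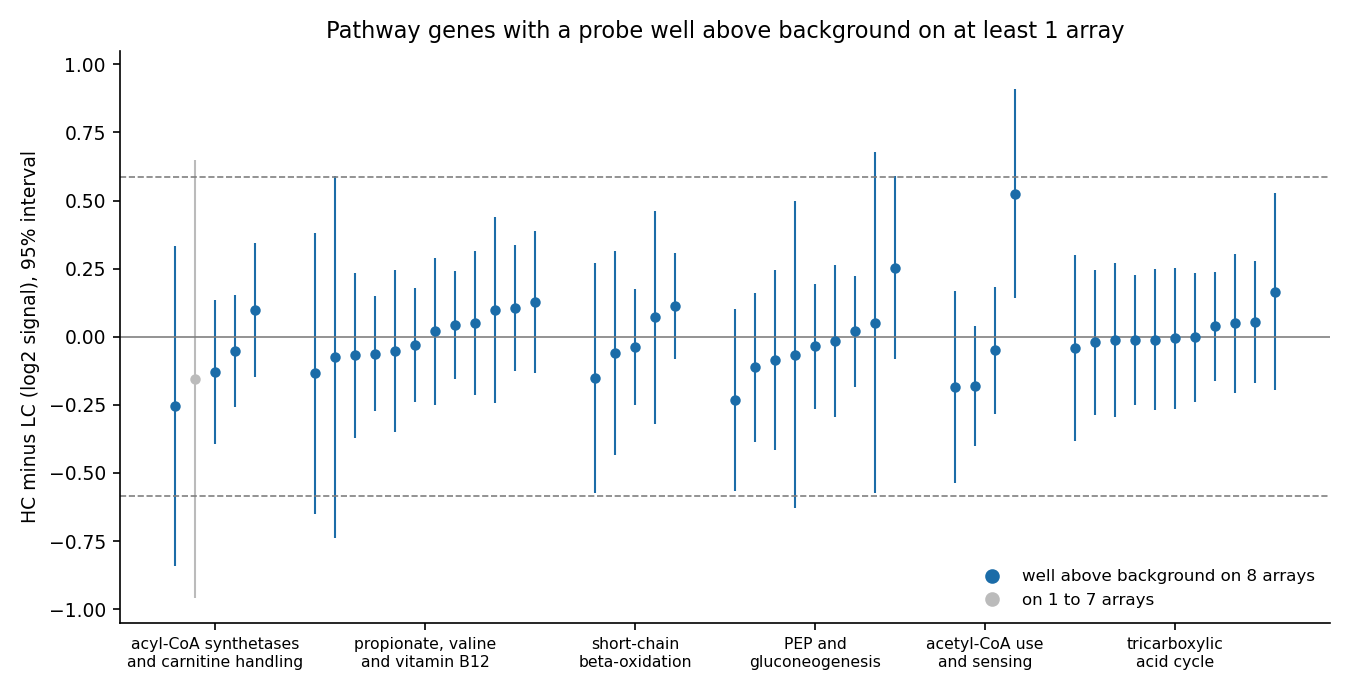
HC minus LC on the log2 scale, with 95% intervals, for the 46 pathway genes whose probe was well above background on at least 1 array, grouped by list and sorted within it. Blue genes were well above background on all 8 arrays, the grey gene on 7, and dashed lines mark 1.5-fold. Most intervals span 0, and the point highest above 0, SIRT1 at 0.52, lies inside the dashed line.

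Finally, the genes whose signal was most like that of each measured gene over the 8 arrays were listed, among 6468 genes, as a description. ACSS1 was followed most closely by SLC31A2 (r = 0.95), ZFPL1 and H2BC12, and ACSS2 by APBB1 (0.98), HOXA5 and NRG1. For ACSM1 they were ADCY8 (0.97), UQCC1 and CPN2, for PCCB PABPC1 (0.92), TRAPPC11 and CDC42SE1, for MMUT POLR1E (0.97), VASP and PGM1, and for MCEE UBE2V2 (0.97), GDPGP1 and RAVER1. The 8 arrays come from 4 cows and the highest of many values were taken, so no test is attached.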

How the data were processed

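RNA of rumen papillae was hybridized in a single colour to 8 bovine oligonucleotide arrays, 4 per diet. The authors deposited the scanner output of Agilent Feature Extraction 10.7.3.1, with background-subtracted spot intensities that were not normalized between arrays, and a table of log2 values that the authors had quantile-normalized. The scanner intensities were used. Spots marked as outliers (0 to 11 per array) were left out, and limma 3.58.1 (R 4.3.3) was used for quantile normalization of the log2 intensities, followed by averaging over each probe's spots. No spot was saturated, and the number of arrays limits the precision.

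The RefSeq gene table of ARS-UCD2.0 gave a name to 8297 of the 10176 probes that carry a RefSeq accession. Positions and sequences are not given, since the array annotation is of another build and no sequence was used here. Each gene was read from its brightest probe. The limma model followed the study's terms (diet, period, interaction) over all probes, with 4 residual and 2.26 prior degrees of freedom, after it was tested on simulated data. Alternatives were other scalings, filters, blocks and models, and each array left out. For normexp, median spot signals were used. Benjamini-Hochberg adjustment ran over all 21475 probes. Exact permutation tests used scipy 1.17.1. The cows pair the arrays by the labels: deviations from the diet means correlated at 0.113 to 0.467 within cows.

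The genes and lists were chosen with earlier results of these data known. Text names the 10 genes, list genes past the call rule or else the 2 with the smallest P, and the 3 genes most like each measured gene. A name outside this rule is marked as such.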

Additional observations from a re-analysis of the deposited data

Results flagged for a closer look

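The diet difference of ACSS2 in period 2 minus that in period 1 was -0.69 on the log2 scale. Limma gave it an unadjusted P of 0.0159 and an adjusted P of 0.415, and 8.58% of all probes were called for this term. It is also the contrast between the pairs of cows, with means of 12.26 in cows 1 and 2 and 12.61 in cows 3 and 4. Within cows 1 to 4, HC minus LC was -0.15, -0.28, -0.13 and -0.28. With the arrays of a cow averaged first, ACSS2 was not called (limma unadjusted P = 0.0573). On HC, the MMUT signal of cow 3, 11.33, lay farther from the other 3 than Dixon's limit allows, and so did the PCCB signal of cow 2 on HC, 12.54, with gaps of 0.93 and 0.89 of the group's range. In 12 groups examined, chance marks about 1 group in 20.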

How the results depend on the processing

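The count of all probes called for diet, 198, was 8 with normexp background correction, 415 with the deposited table, 83 after leaving out dim probes, 105 without moderation, and 239 to 404 with any 1 array removed. With the arrays paired by cow as a block it was 276, and 85 when that fit was not moderated, a setting added after the data were seen. The 0 listed genes called for diet became 1 (PCK1) with the deposited table and lay between 0 and 1 with any 1 array removed (PCK1, without the HC array of cow 3). Those called for period also lay between 0 and 1 (PCK1, without the HC array of cow 4), and those for the interaction from 0 to 2. For the interaction, 0 were called without the LC array of cow 1, and ACSS2 and MMUT without the HC array of cow 4. Without the HC array of cow 3, PCK1, which is near background, was the only gene called. On the mean of each cow, 0 of the listed genes were called for the interaction. The 1 pathway gene called became 0 with normexp and without dim probes, and lay between 1 and 2 with any 1 array removed.

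With any 1 array removed, the log2 difference spanned 0.14 to 0.20 for ACSS1, -0.27 to -0.14 for ACSS2, 0.003 to 0.10 for ACSM1, -0.048 to 0.12 for PCCB, -0.19 to 0.034 for MMUT and -0.22 to -0.003 for MCEE, so PCCB (-0.048 without LC cow 3, -0.04 without HC cow 1) and MMUT (0.034 without HC cow 4) changed sign. Without moderation the unadjusted P of ACSS1 was 0.0226 from the general linear model, and the gene was not called. The cow block made no call of a listed gene for diet. The cause of these changes was not tested. Genes near background, PCK1 among them, have signals too dim for a fold change on these arrays.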
